A study of Mus musculus with 56 samples.

Results

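The genes described here encode the core of the T cell antigen receptor complex and its closest partners. They are Cd3d, Cd3e, Cd3g and Cd247, which encode the CD3 delta, epsilon, gamma and zeta chains, Trac, Trbc1 and Trbc2, the constant genes of the receptor's alpha and beta chains, Cd4, the co-receptor of helper T cells, Lck, the kinase that CD4 carries, and Cd28, the main costimulatory receptor. These 10 genes were taken by symbol, from a fixed list, out of the 53379 genes of the count table, and all 10 were found. T cells recognise peptides on MHC molecules through the alpha and beta chains, which have no signalling tails of their own. The CD3 and zeta chains carry the tails, LCK phosphorylates them once CD4 or CD8 has bound the MHC molecule, and CD28 adds the signal that full activation needs. In the male reproductive tract, T cells are known to lie in and under the duct epithelium, near sperm that carry antigens absent from the rest of the body.

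The data are 56 RNA-seq libraries from C57BL/6 male mice, 4 from each of 7 regions at 3 months and 4 from each region at 21 months. The regions were the testis, the efferent ductules, the initial segment, caput, corpus and cauda of the epididymis, and the vas deferens. The labels give no treatment and no genetic change in either age group, and the comparison of the ages addresses how each region changes in natural aging. Per the study's methods, all regions of 1 mouse were dissected together and the organs of both sides were used, so regions of one age share mice, but no source says that a replicate number marks a mouse. Whole tissue was sequenced as stranded total RNA. A level is therefore a sum over all cells of the region, and fewer cells of a type and less RNA per cell cannot be told apart.

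The libraries held between 11125279 and 20561967 counts on genes. Summed markers of each region were highest in that region's own libraries at both ages, except that the caput markers (Lcn5, Adam7 and Gpx5) overlapped between the initial segment and the caput at 3 months. The transcript Gm42418 took up to 49.7% of a library's counts (3-month caput replicate 2). The libraries that stood apart were 3-month cauda replicate 3, in which summed macrophage markers reached 1771 CPM against 426 to 441 CPM in the other 3 cauda libraries of that age, and 21-month vas deferens replicate 4, the highest of its group for all 10 genes. In addition, 21-month efferent ductule replicates 2 and 3 held summed caput markers at 791 and 257 CPM, against 0.614 and 4.92 CPM in replicates 1 and 4. Levels are counts per library size in the unit CPM, after trimmed-mean scaling of all 56 libraries.

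The 3 CD3 genes are neighbours on chromosome 9 (GRCm38), with Cd3g at chr9:44969572-44980431 on the minus strand, Cd3d at chr9:44981786-44987339 on the plus strand and Cd3e at chr9:44998740-45009627 on the minus strand. Cd247 lies at chr1:165788681-165877277 and Cd28 at chr1:60716800-60773359, both on the plus strand. Cd4 lies at chr6:124864692-124888221 and Lck at chr4:129548344-129573641, both on the minus strand. Trac is at chr14:54220521-54224206, and Trbc1 (chr6:41538218-41539881) and Trbc2 (chr6:41546730-41548352) sit next to each other on the plus strand of chromosome 6. Trbc1 and Trbc2 are near-identical copies: 495 of 518 coding bases were the same in the GENCODE M21 transcripts, and the longest run without a difference was 259 bases. How reads that fit both were counted is not stated, so the split between these genes is uncertain. Coding bases 383 to 482 hold 16 of the 23 differences and are shown because only reads over such bases can tell the genes apart. Capitals mark the differing bases.
Trbc1: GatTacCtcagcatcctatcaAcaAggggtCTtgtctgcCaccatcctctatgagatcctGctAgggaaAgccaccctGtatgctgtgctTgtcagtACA
Trbc2: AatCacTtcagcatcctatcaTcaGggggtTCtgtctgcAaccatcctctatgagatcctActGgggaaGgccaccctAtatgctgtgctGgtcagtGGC

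The 250 bases before the start sites of the CD3 genes and Cd247 are shown next, because Cd3d and Cd247 differed from Cd3e and Cd3g in the testis. The sequences come from RefSeq on GRCm38.p6, each on the strand of its gene, at chr9:44981536-44981785 (Cd3d), chr9:45009612-45009861 (Cd3e), chr9:44980432-44980681 (Cd3g) and chr1:165788431-165788680 (Cd247). Windows were found for 5 of the 10 genes, these 4 and Lck, and none were found for Trac, Trbc1, Trbc2, Cd4 and Cd28. Capitals mark matches, on either strand, to the ETS letters AGGAAG, the GATA factor letters AGATAA, the TCF/LEF letters CTTTGA, the RUNX letters TGTGGT and the E-box letters CAGNTG.
Cd3d: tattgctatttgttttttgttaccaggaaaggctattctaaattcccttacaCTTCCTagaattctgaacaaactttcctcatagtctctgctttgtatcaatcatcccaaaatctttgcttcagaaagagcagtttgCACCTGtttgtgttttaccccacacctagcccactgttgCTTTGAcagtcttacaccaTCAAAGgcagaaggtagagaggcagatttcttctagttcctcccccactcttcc
Cd3e: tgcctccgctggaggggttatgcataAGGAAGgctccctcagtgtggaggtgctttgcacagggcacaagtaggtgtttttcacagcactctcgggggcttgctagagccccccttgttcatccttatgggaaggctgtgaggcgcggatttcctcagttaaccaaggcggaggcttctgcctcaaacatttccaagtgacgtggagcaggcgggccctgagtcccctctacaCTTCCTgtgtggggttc
Cd3g: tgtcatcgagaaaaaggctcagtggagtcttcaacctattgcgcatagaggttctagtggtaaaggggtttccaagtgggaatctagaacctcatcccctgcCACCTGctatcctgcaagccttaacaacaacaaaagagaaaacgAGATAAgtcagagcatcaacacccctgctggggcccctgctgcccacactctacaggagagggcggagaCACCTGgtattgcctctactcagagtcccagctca
Cd247: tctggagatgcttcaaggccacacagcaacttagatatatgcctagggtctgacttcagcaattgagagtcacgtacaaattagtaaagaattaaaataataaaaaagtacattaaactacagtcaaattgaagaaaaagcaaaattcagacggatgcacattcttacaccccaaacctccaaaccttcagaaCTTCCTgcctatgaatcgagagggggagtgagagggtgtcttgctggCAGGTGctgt

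The Cd3d window held 1 ETS match, 2 TCF/LEF matches and 1 E-box. The Cd3e window held 2 ETS matches, the Cd3g window 1 GATA match and 2 E-boxes, and the Cd247 window 1 ETS match and 1 E-box. Of the 2 Lck windows, at chr4:129573642-129573891 and chr4:129558373-129558622, the upstream window held 3 ETS matches and 1 RUNX match, and the other held 1 ETS match and 1 E-box. Among all 32851 windows of this length, 29.5% held the ETS letters, 44.8% the E-box, 14% the RUNX, 13.8% the TCF/LEF and 9.99% the GATA letters. The matches are a description of these letters and not of bound sites, and none of the motifs was in all of the windows.

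At 3 months the 10 genes were at low levels in every region, with group means from 0 to 8.45 CPM. An edgeR quasi-likelihood test of any difference among the 7 regions called 9 of the 10, all but Trac (adjusted p = 0.116). It also called 91.1% of all genes tested, so the count is close to the background. Without 3-month cauda replicate 3, in a fit added after the data had been seen, the count was again 9 (background 91.5%). At 21 months it called 10 of 10, against 91.3% of all genes. In fits of the ducts without the testis, added after the data had been seen, 8 genes were called at 3 months and 10 at 21 months (background 78.6 and 79.4%).

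The testis differed from the ducts in which of the genes it held. Cd3d, the CD3 delta chain, was at 2.92, 3.10, 3.33 and 2.94 CPM in the 4 testis libraries at 3 months, and at most at 1.17 CPM in the 24 libraries of the other regions. Cd247, the zeta chain, was at 8.70, 6.09, 11.1 and 7.94 CPM in the testis, and at most at 1.48 CPM elsewhere. Both genes were thus above all duct libraries, and the same held at 21 months (Cd3d 2.32 to 3.11 CPM against at most 2.17 CPM, and Cd247 8.12 to 9.78 CPM against at most 5.65 CPM). Of all genes tested, 29.7% lay above every other library in the testis at 3 months and 29.2% at 21 months. The count of 2 of 10 is therefore not above the background.

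Their partners in the complex did not follow them there. Cd3g, the CD3 gamma chain, had 1, 1, 0 and 0 reads in the 3-month testis libraries and 7, 0, 0 and 0 reads at 21 months. Trbc1 had no read at 3 months and 2, 1, 0 and 1 reads at 21 months, where the similar Trbc2 was at 1.55, 1.79, 1.86 and 1.82 CPM at 3 months and at 1.75, 1.83, 1.42 and 1.87 CPM at 21 months. Set against a floor of 3 counts per library for Trbc1, Trbc2 was at least 9.0-fold higher in each 3-month testis library. In the other 6 regions at that age the mean log2 ratio of Trbc2 to Trbc1 counts was between -0.06 and 1.72, with 0.5 added to both counts. Cd3e, the epsilon chain that pairs with both delta and gamma, was lower in the testis than in any other region on average, at 0.605 ± 0.139 CPM.

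Per kilobase of exon, which allows genes to be compared, the 3-month testis held Trbc2 at 2.54 ± 0.20, Cd3d at 1.69 ± 0.10 and Cd247 at 1.59 ± 0.39 CPM per kb (SD, n = 4). Lck followed at 0.647, and the other 6 genes were between 0 and 0.215 CPM per kb. In the vas deferens of the same age the 10 genes lay closer together, from 0.108 CPM per kb for Cd247 to 0.740 for Lck. Cd247 shares 3007 exon bases with Pou2f1, a widely used transcription factor gene on the opposite strand, and the strand setting of the counting is not stated. Pou2f1 was at 66.5 ± 6.0 CPM in the 3-month testis and at 42.2 to 62.5 CPM on average in the other regions, and its part in the Cd247 counts was not tested. No gene of the annotation overlapped Cd3d or Trbc2.

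**Figure D1:**
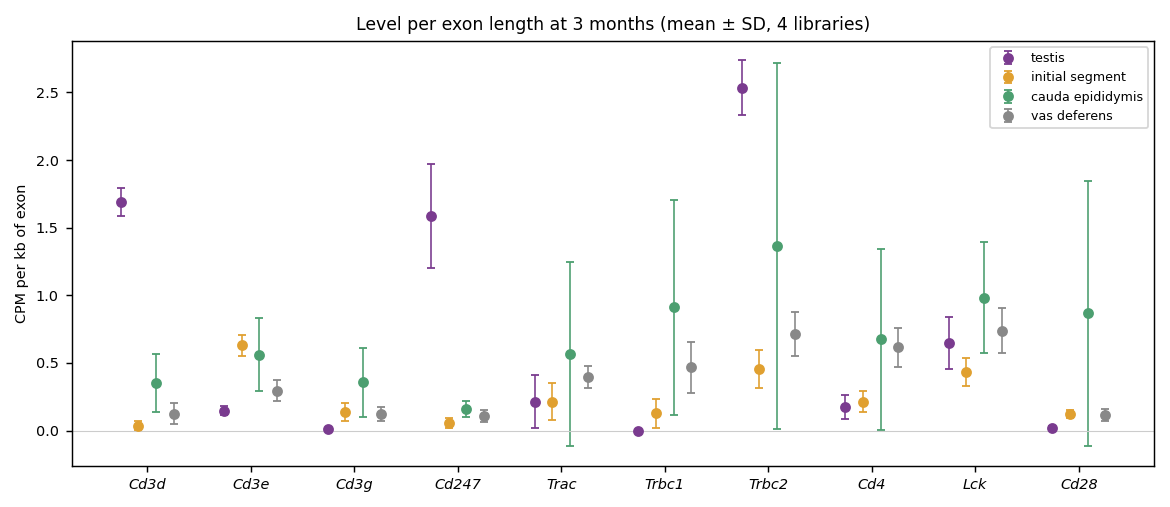
Level of each gene in CPM per kilobase of exon at 3 months, as mean and SD over 4 libraries, in the testis, the initial segment, the cauda and the vas deferens. Trbc2, Cd3d and Cd247 stand at 1.59 to 2.54 in the testis, where Cd3g and Trbc1 are at or near 0, and the wide cauda bars come from replicate 3.

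In the ducts at 3 months, the cauda had the highest mean of 9 of the 10 genes among the 6 duct regions, at 0.637 CPM for Cd3d, 1.17 for Cd3g and 2.88 for Lck. Without replicate 3 it was highest for 3 genes, Cd3d, Lck and Cd28. Cd28 showed the widest steps: it was at 1.66, 2.41, 14.3 and 2.87 CPM in the cauda, at 1.96 ± 0.19 in the corpus and 1.55 ± 0.17 in the caput, and at 0.101 to 0.369 CPM in the efferent ductules. Corpus and caput did not overlap with the initial segment, nor the vas deferens with the efferent ductules, while cauda and corpus did overlap. Cd3e had its highest mean in the initial segment (2.57 ± 0.32 CPM), where its 4 values, from 2.21 to 2.86 CPM, lay above all libraries of the other regions except cauda replicate 3 (3.87 CPM). Cd3g was higher in the corpus (0.799 to 1.31 CPM) than in the initial segment (0.181 to 0.645 CPM), with no overlap.

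**Figure D2:**
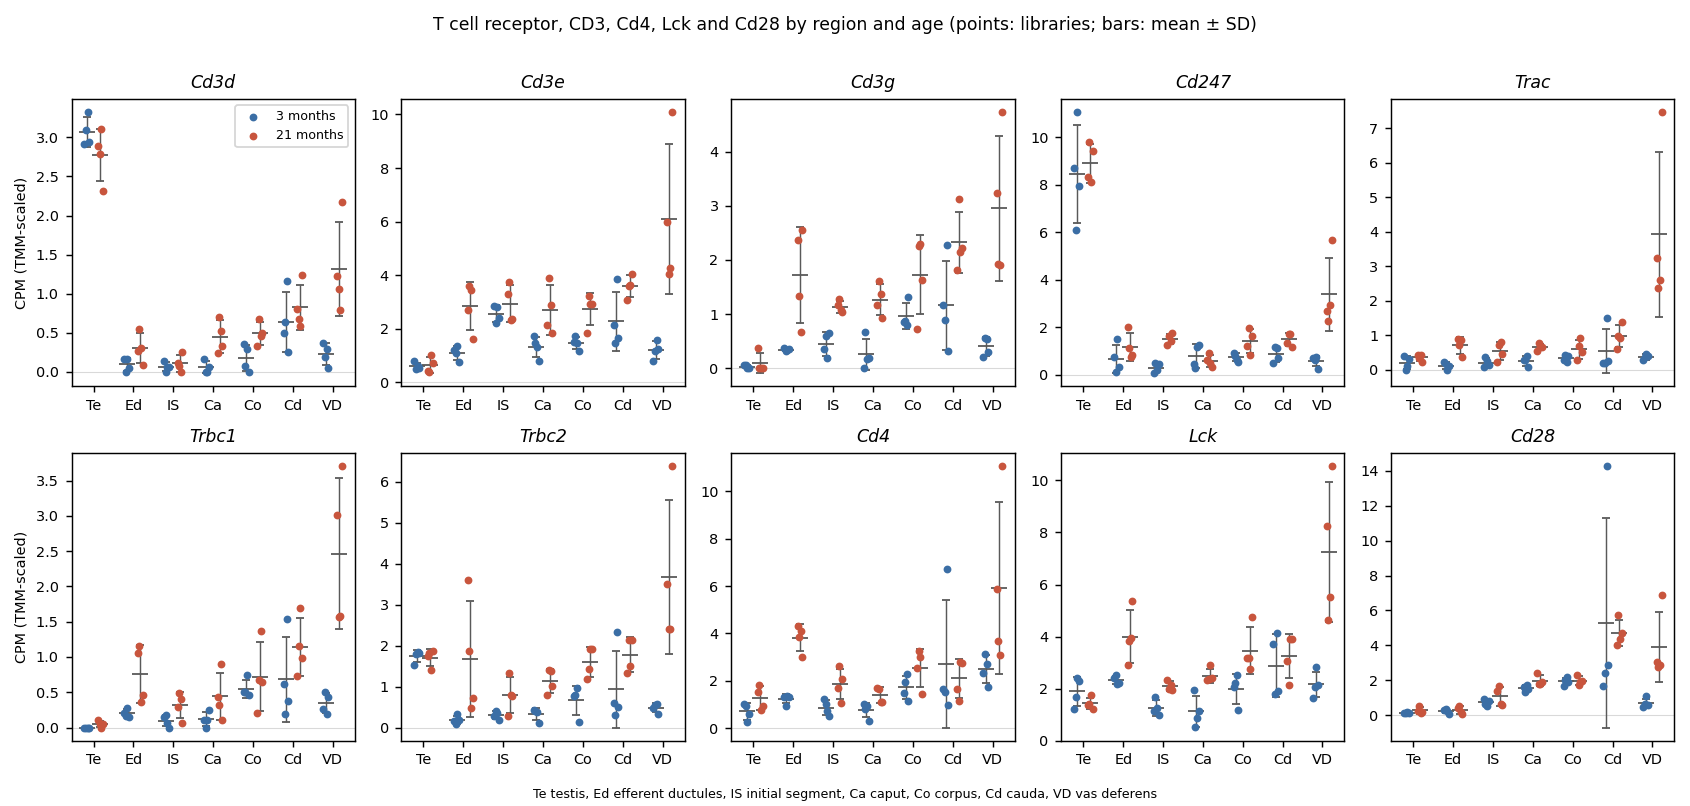
CPM of each gene in every library, by region (horizontal axis) and age (3 months blue, 21 months red), with the group mean and SD as bars. Cd3d and Cd247 are highest in the testis, the vas deferens at 21 months holds the highest library of the other genes except Cd28, and the lone high 3-month point in the cauda is replicate 3.

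With age the genes rose or did not pass the test, and none was called lower. At a Benjamini-Hochberg adjusted p under 0.05 over all genes of a region, in the edgeR quasi-likelihood test, 10 of 10 were higher at 21 months in the vas deferens (background 11.4% of all genes higher). The efferent ductules had 7 of 10 (4.0%), the initial segment 4 of 10 (3.35%) and the caput 3 of 10 (3.09%). None was called in the testis (0.353%), the corpus (1.5%) or the cauda (0.07%), where DESeq2 also called 0 and where 1 of 8, 5 of 10 and 1 of 10 had an unadjusted p under 0.05. Over all regions, 24 of the 68 tests were calls and 62 of the 68 fold changes were above 0. The median log2 fold changes were 0.08 in the testis, 1.73, 1.35, 1.19, 0.81 and 0.66 along the ducts from the efferent ductules to the cauda, and 2.47 in the vas deferens, beside medians of all genes between -0.04 and 0.02. Lower were 0.21, 2.98, 3.01, 5.05, 1.47, 0.0583 and 8.47% of all genes from the testis to the vas deferens. By the thresholds of the study, an unadjusted p under 0.05 with 1.5-fold, applied here to the p of edgeR, the counts of higher genes were 1, 8, 7, 8, 5, 1 and 10 in the same order of regions, against 1.42, 6.68, 6.01, 4.75, 3.48, 3.54 and 12.4% of all genes.

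**Figure D3:**
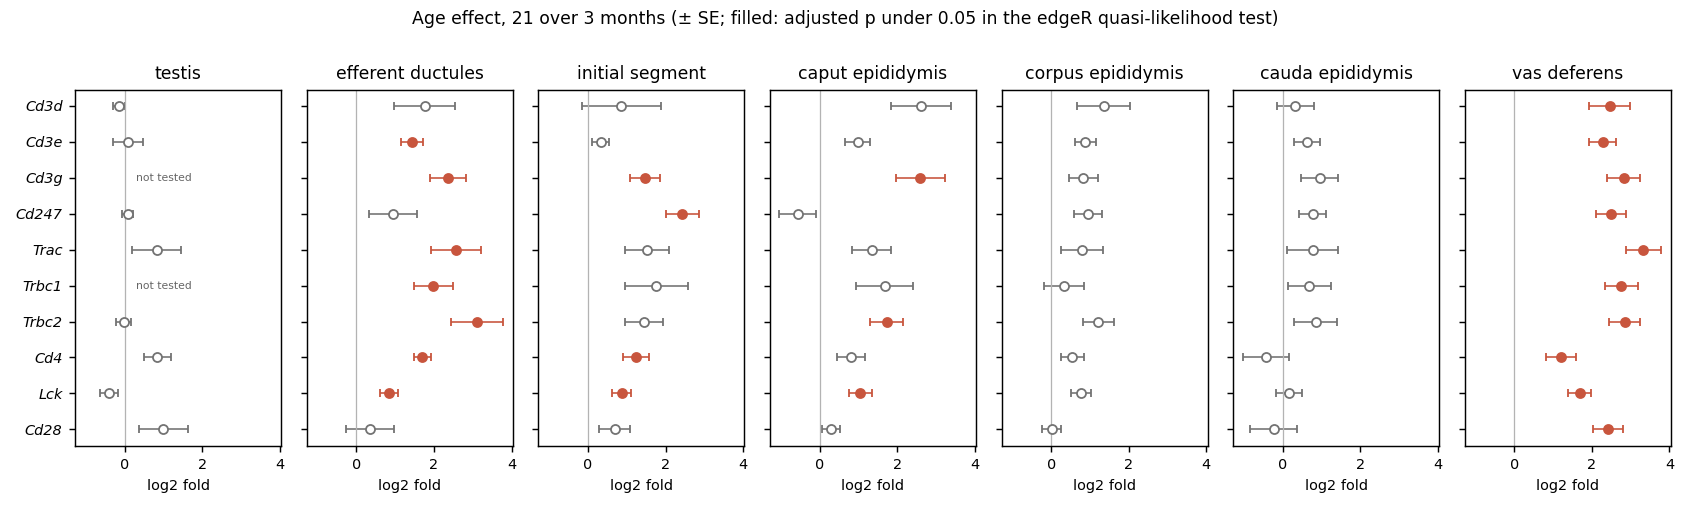
Log2 fold change of each gene at 21 over 3 months in each region, with its standard error. Filled red points have an adjusted p under 0.05: all 10 for the vas deferens, 7 for the efferent ductules, 4 for the initial segment and 3 for the caput.

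The vas deferens had the highest median change of the 7 regions, although Cd4 and Trbc2 had larger fold changes in the efferent ductules, Cd4 also in the initial segment, and Cd3d in the caput, where it did not pass the test. Trac, the alpha chain constant gene, went from 0.264, 0.375, 0.445 and 0.389 CPM at 3 months to 3.24, 2.37, 2.59 and 7.48 CPM at 21 months. All 4 old libraries lay above all 4 young ones, and the log2 fold change of 3.33 ± 0.45 (SE, adjusted p = 0.00113) corresponds to 10.1-fold. Without replicate 4, the highest, it was 2.80 (adjusted p = 0.000126). Trbc2 rose from 0.476, 0.563, 0.594 and 0.341 CPM to 3.52, 2.42, 2.42 and 6.39 CPM, and Trbc1 from 0.264, 0.50, 0.198 and 0.438 CPM to 3.01, 1.56, 1.58 and 3.71 CPM. The beta chain genes thus rose by a like size, with log2 fold changes of 2.84 ± 0.39 and 2.76 ± 0.43.

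The CD3 chains rose with them. Cd3e went from 0.793, 1.19, 1.58 and 1.27 CPM to 5.97, 4.04, 4.28 and 10.1 CPM, a log2 fold change of 2.27 ± 0.34 (adjusted p = 0.00184). Cd3g went from 0.212, 0.563, 0.544 and 0.292 CPM to 3.24, 1.92, 1.91 and 4.74 CPM, a log2 fold change of 2.82 ± 0.42. Cd3d and Cd247 rose by 2.45 ± 0.52 and 2.49 ± 0.39 on the log2 scale, and in all 4 of these genes the ages did not overlap. In the vas deferens, then, the chains that were apart in the testis moved together.

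Co-receptor, kinase and costimulator gave a wider range. Cd28 rose from 0.476, 0.625, 1.09 and 0.584 CPM to 3.07, 2.77, 2.87 and 6.91 CPM (log2 fold change 2.42 ± 0.39, adjusted p = 0.00242). Lck rose from 1.64, 2.06, 2.82 and 2.14 CPM to 8.26, 4.64, 5.51 and 10.6 CPM (1.68 ± 0.29, adjusted p = 0.00333). Cd4 had the smallest change, from 2.33, 3.13, 2.72 and 1.75 CPM to 5.86, 3.68, 3.09 and 11.1 CPM, and its ages overlapped by the library at 3.09 CPM. Its log2 fold change of 1.21 ± 0.39 had an adjusted p of 0.0491, and without 21-month replicate 4 it was 0.71 (adjusted p = 0.0842). The call was also lost without 21-month replicate 1 (adjusted p = 0.0806) or any 3-month library (0.0726 to 0.131). The other 9 genes had no overlap between ages, as 15.3% of all genes had in that direction, and were still called without any of the 8 libraries. Cd4 is also carried by some macrophages and dendritic cells in the mouse. Summed macrophage markers of the vas deferens were at 228 to 315 CPM at 3 months and at 225 to 366 CPM at 21 months. The part of such cells in the Cd4 values was not tested.

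Markers of other regions also moved with age in the vas deferens. Of the 15 markers of the other 6 regions 6 were called higher (background 11.4%) and none lower. They were the initial segment gene Adam28 (0.374 and 1.42 CPM at 3 and 21 months), the caput gene Gpx5 (0.957 and 10.7 CPM, adjusted p = 0.00427), the corpus genes Spint3 (0.721 and 3.0 CPM) and Wfdc13 (0.114 and 0.719 CPM), the cauda gene Wfdc9 (3.24 and 11 CPM) and the efferent ductule gene Slc9a3 (1.06 and 5.22 CPM). Of its own markers, Akr1b7 was lower (20750 and 15100 CPM) and Myh11 higher (5040 and 7351 CPM). In 21-month replicate 4 the summed vas deferens markers were at 15680 CPM, against 24000 to 25700 CPM in the other 3, and Wfdc9 was at 22.8 CPM against 4.47 to 11.2 CPM. The adipocyte genes Plin1 and Adipoq were chosen after their values were seen. Plin1 (12.5 ± 8.0 and 4.98 ± 3.86 CPM) and Adipoq (10.5 ± 7.1 and 3.52 ± 2.70 CPM) had lower means at 21 months, with overlap between the ages. The part of these differences in the rise of the 10 genes was not tested.

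In the efferent ductules Cd4 had the lowest adjusted p of the 10 genes. It was at 1.33, 0.949, 1.37 and 1.32 CPM at 3 months and at 4.30, 3.87, 4.11 and 3.00 CPM at 21 months, a log2 fold change of 1.70 ± 0.22 (adjusted p = 0.00537). Trbc2 had the largest change, from 0.159, 0.106, 0.328 and 0.203 CPM to 3.60, 1.88, 0.491 and 0.728 CPM (3.12 ± 0.67, adjusted p = 0.025), with old libraries that differed by several fold among themselves. Trac, Cd3g, Trbc1, Cd3e and Lck also rose, by 2.57, 2.37, 1.98, 1.44 and 0.84 on the log2 scale, and all 7 called genes had no overlap between ages, as 5.47% of all genes did in that direction.

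Cd3d (0.094 against 0.303 CPM), Cd247 (0.658 against 1.17 CPM) and Cd28 (0.266 against 0.317 CPM) did not pass in the efferent ductules. Some calls rested on few reads, such as Trac with 9 and 41 at 3 and 21 months, where Lck had 177 and 225. With 1 library left out, 1 gene was called without 3-month replicate 1, 3 or 4 and 3 without 3-month replicate 2. Without 21-month replicate 1, 2, 3 or 4 the counts were 5, 4, 5 and 6, replicates 2 and 3 being the libraries with caput markers. Cd4 was called each time, and the share of all genes called in these fits is not given. Without 21-month replicate 2 the lost genes Lck, Trac and Trbc1 still had log2 fold changes of 0.90, 2.59 and 1.73. That of Cd3e was between 1.31 and 1.62 in all these fits. Summed macrophage markers were also higher there at 21 months (489 to 604 CPM) than at 3 months (400 to 432 CPM), as were B cell markers (103 to 397 against 18.2 to 29.8 CPM), and their part in these changes was not tested. Gm42418 took 1.27 to 3.3% of the counts there at 3 months and 22.2, 4.93, 14.9 and 18.5% at 21 months, and 21-month replicates 1 and 4 had the lowest totals of all libraries (11442133 and 11125279 counts). With Gm42418 removed, 7 genes were again called. Of the region markers, Adam28 and Cst8 of the initial segment (0.0398 and 51.3 CPM, and 0.35 and 19.9 CPM) and Adam7 of the caput (2.59 and 90.8 CPM) were called higher at 21 months, with the initial segment markers summed at 221 and 106 CPM in replicates 2 and 3 and at 2.46 CPM in each of replicates 1 and 4. Lrp2, a marker of the efferent ductules themselves, was called lower (2411 and 1669 CPM). Cd36, a fatty acid receptor of adipocytes and macrophages (97.5 ± 23.7 and 34.7 ± 13.6 CPM at 3 and 21 months), and the adipocyte gene Plin1 (76.7 ± 16.7 and 40.5 ± 20.9 CPM), chosen after their values were seen, were lower on average at 21 months, and their part was not tested either.

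In the initial segment Cd247 changed most, from 0.0714, 0.479, 0.181 and 0.452 CPM to 1.23, 1.62, 1.40 and 1.74 CPM (log2 fold change 2.43 ± 0.42, adjusted p = 0.00372). Cd3g, Cd4 and Lck rose by 1.48, 1.24 and 0.87 on the log2 scale, with adjusted p of 0.0345, 0.0465 and 0.0466 in the same test. The ages did not overlap in 3 genes, against 3.92% of all genes. In a fit of all 56 libraries Cd247 alone was still called, and Cd3g, Cd4 and Lck had adjusted p of 0.168, 0.196 and 0.2. Cd3e was at 2.21 to 2.86 CPM at 3 months and at 2.34 to 3.74 CPM at 21 months, and the ages overlapped. Of these 4 calls, 1 or 2 were left when a library was omitted. Cd247 was called each time, and it was the only one of the 4 left without 3-month replicate 3 or 21-month replicate 2 or 4. Without 3-month replicate 3, Cd3g, Cd4 and Lck still had log2 fold changes of 1.22, 1.18 and 0.89. Without 21-month replicate 1, Cd247 and Cd4 were left and Trbc2 was called as well (adjusted p = 0.0278). Summed B cell markers were also higher in the initial segment at 21 months (17.6 to 129.5 CPM) than at 3 months (6.26 to 8.13 CPM), and all 3 sperm markers of the testis were called lower (summed 18.2 to 70.7 and 4.75 to 15.1 CPM). The part of these in the changes was not tested.

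In the caput Cd3g went from 0, 0.669, 0.164 and 0.189 CPM to 1.16, 1.60, 1.38 and 0.923 CPM (2.60 ± 0.62, adjusted p = 0.0251), and Trbc2 and Lck rose by 1.73 and 1.05. Cd247, by contrast, was at 0.268 to 1.26 CPM at 3 months and at 0.326 to 0.898 CPM at 21 months, with a log2 fold change of -0.56 ± 0.48. Ages did not overlap in 8 of the 10 genes, all higher at 21 months, as in 8.62% of all genes. The count of 3 calls became 5 without 3-month replicate 1, 1 without 21-month replicate 1 or 4, and 0 without 3-month replicate 3 or 4 or 21-month replicate 2 or 3. Without 3-month replicate 3 the log2 fold changes of Cd3g, Trbc2 and Lck were still 2.50, 1.81 and 0.91. Without 3-month replicate 2, the library rich in Gm42418, Cd3g and Trbc2 were called and Lck was not (adjusted p = 0.0708). Of 3 sperm markers 2 were called lower in the caput (summed 50.0 to 71.2 CPM at 3 months and 32.4 to 41.4 CPM at 21 months), as was 1 of 2 vas deferens markers (summed 335 to 506 and 212 to 250 CPM), and their part was not tested.

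In the corpus all 10 log2 fold changes were above 0, from 0.01 (Cd28) to 1.36 (Cd3d), but no adjusted p was under 0.0916 (Cd3e). Cd3e, Trbc2 and Lck had no overlap between ages there, against 4.44% of all genes.

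In the cauda, 3-month replicate 3 decided the sign for Cd4 and Cd28. Cd4 was at 1.66, 1.53, 6.74 and 0.957 CPM at 3 months and at 1.67, 1.16, 2.81 and 2.74 CPM at 21 months, and its log2 fold change was -0.43 with that library and 0.63 without it. Cd28 changed from -0.23 to 1.06 in the same way, and in neither case was the adjusted p under 0.05. Trac, which was at 1.49 CPM in that library and at 0.185 to 0.255 CPM in the other 3, had a log2 fold change of 0.78 with it and 2.19 without it (adjusted p = 0.0831). No gene was called in the cauda with or without the library. Its summed dendritic cell markers, 104.8 CPM against 21.7 to 26.2 CPM, and its B cell markers, 28.1 CPM against 13.5 to 21.1 CPM, were high as well, and what part they had in these values was not tested.

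In the testis no age effect passed the test. Cd3d had a log2 fold change of -0.15 ± 0.16, Cd247 of 0.07 ± 0.14 and Trbc2 of -0.03 ± 0.20. Cd4 was at 0.273 to 1.03 CPM at 3 months and at 0.763 to 1.83 CPM at 21 months (0.84 ± 0.35, adjusted p = 0.388). Cd3g and Trbc1 had too few reads to be tested.

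A fit of all 56 libraries treated them as independent, although regions of one age share mice. Whether the age effect differed among regions was tested in this fit. It did for 7 of the 10 genes, against 20.2% of all genes: Cd247 (adjusted p = 0.000745), Cd3e (0.00159), Lck (0.0024), Trbc2 (0.00283), Cd3d (0.00807), Cd28 (0.0104) and Trac (0.0292). Cd3g, Trbc1 and Cd4 had adjusted p of 0.106, 0.088 and 0.111. The count depended on both ends of the tract: 4 genes were called in a fit without the testis (background 20.0%) and 3, namely Cd247, Trbc2 and Lck, in a fit without the vas deferens (11.9%). Without 21-month vas deferens replicate 4 it was called for 5 genes (19.0%), no longer for Trac and Cd28. Without this library, 3-month cauda replicate 3 and 21-month efferent ductule replicates 2 and 3, it was called for 6 genes (22.7%), all of the 7 but Trac. These 4 fits were added after the data had been seen. Leaving out all libraries of replicate number 4 gave 3 genes and of number 1 gave 4.

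The same fit, with libraries treated as independent, gave the contrast of the vas deferens. Its age effect exceeded the mean of the other 6 regions for 6 genes (background 6.51% higher). The differences in log2 fold change were 2.13 ± 0.48 for Cd28, 2.10 ± 0.55 for Trac, 1.82 ± 0.44 for Cd247, 1.62 ± 0.32 for Cd3e, 1.53 ± 0.50 for Trbc2 and 1.21 ± 0.29 for Lck. Cd4 had a difference of 0.50 ± 0.42 (adjusted p = 0.682), and Cd3d and Cd3g of 1.39 ± 0.60 and 1.26 ± 0.63, which did not pass. The count fell to 4 without 21-month vas deferens replicate 4 (Cd3e, Cd247, Lck and Cd28, background 4.62%), in a fit added after the data had been seen. With 3-month cauda replicate 3 and 21-month efferent ductule replicates 2 and 3 left out as well, it was 2 (Cd3e and Cd28, background 5.2%). It was 1 when all libraries of replicate number 4 were left out and 2 without number 1. For Trbc1 the difference could not be estimated, because it had no read in the 3-month testis. Against the mean of the 5 duct regions, without the testis, the Trbc1 difference was 1.47 (adjusted p = 0.146), Trbc2 was no longer called (1.17, adjusted p = 0.212) and the other 5 remained called (background 5.67% of all genes higher).

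The balance between Cd4 and the pan-T-cell gene Cd3e was followed as a log2 ratio of counts within each library, which does not depend on depth. In the vas deferens the ratio was 1.52, 1.37, 0.77 and 0.46 at 3 months and -0.03, -0.13, -0.46 and 0.13 at 21 months. All old libraries lay below all young ones, a difference of -1.15 with a two-sided exact permutation p of 0.0286, the smallest that 4 against 4 allows. Over the 7 regions the adjusted p was 0.2, and no other region had a lower one. In the initial segment the ratio moved the other way, from -1.59 ± 0.52 to -0.69 ± 0.41 (SD, n = 4, exact permutation p = 0.0571).

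Cd8a, the co-receptor of cytotoxic T cells, was compared with Cd4 in the same way, with no test. The log2 ratio of Cd8a to Cd4 went from -2.03 ± 0.69 to 0.66 ± 0.43 in the caput, from -2.73 ± 0.85 to -0.52 ± 0.46 in the vas deferens and from -1.43 ± 0.67 to 0.28 ± 0.77 in the cauda. It was -1.94 ± 0.39 and -1.01 ± 0.45 at 3 and 21 months in the corpus, and -1.99 ± 1.11 and -1.13 ± 0.64 in the initial segment. In the efferent ductules it was -2.12 ± 0.14 at 3 months and -2.82 ± 1.05 at 21 months, and in the testis -2.59 ± 0.75 and -2.50 ± 1.21. Old caput libraries all held more Cd8a than Cd4 reads, and young ones fewer.

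**Figure D4:**
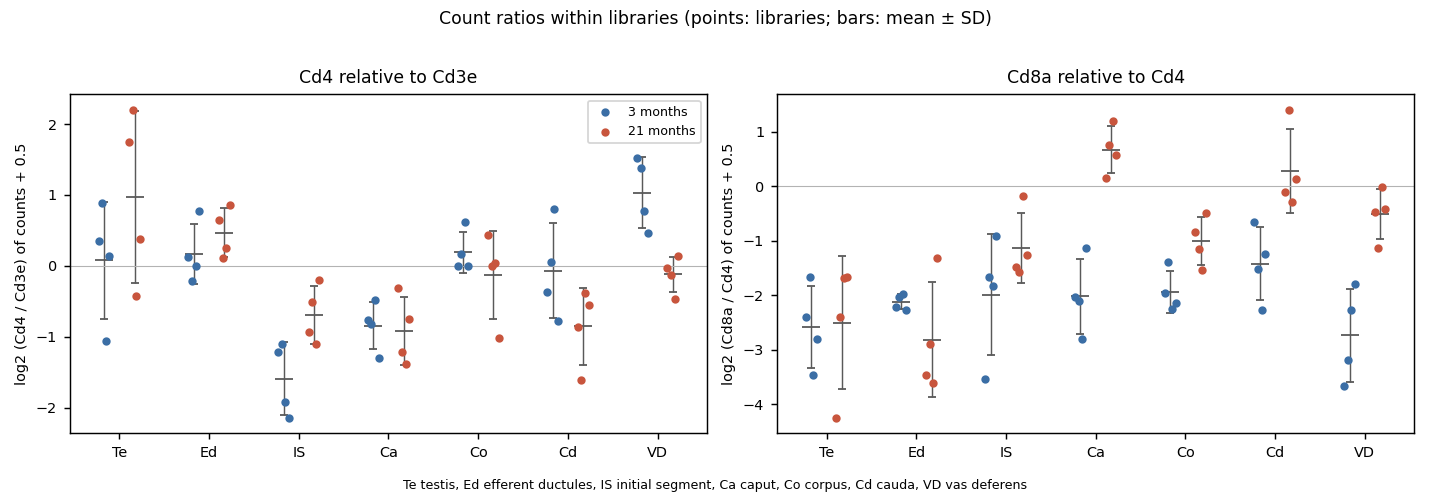
Log2 ratio of Cd4 to Cd3e counts (left) and of Cd8a to Cd4 counts (right) in each library, with 0.5 added to each count, by region and age (3 months blue, 21 months red), with mean and SD as bars. The Cd4 to Cd3e ratio falls below all young libraries in the old vas deferens, and the Cd8a to Cd4 ratio stands higher at 21 months in the caput, cauda and vas deferens.

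Other genes of T cell signalling were read from lists chosen, like the 10 genes, with earlier results of these data known. Beside their counts stand the shares of all genes called, which were 11.4% higher and 8.47% lower in the vas deferens. Of 26 genes of proximal receptor signalling, 16 were higher at 21 months in the vas deferens and none lower, with a median log2 fold change of 1.20. Without 21-month replicate 4 the count was 15 (background 12.1% higher) and the median 0.89. Zap70, the kinase that docks on phosphorylated CD3 and zeta tails, rose from 0.463 to 3.32 CPM, and Themis, a regulator of receptor signalling in developing T cells, from 0.486 to 3.24 CPM. In the initial segment 5 of 25 were higher (background 3.35%), in the efferent ductules 2 of 25 (4.0%) with 1 lower (2.98% lower), and in the caput 2 of 26 (3.09%). In the corpus 1 of 25 was lower (background 1.47% lower). The testis and cauda had no call in edgeR among 50 tests, of which 6 had an unadjusted p under 0.05, and DESeq2 called 1.

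Of 19 T cell surface receptors, 15 were higher in the vas deferens (14 without 21-month replicate 4; their summed level was 307.6 CPM in that library and 81.8 to 148 CPM in the other 3 of its group), such as Cd5, a brake on receptor signalling, which rose from 0.258 to 2.34 CPM. In the caput 5 of 18 were higher (background 3.09%), in the corpus 2 of 17 (1.5%), and in the initial segment 4 of 17 (3.35%), among them Ptprc, the CD45 phosphatase of all leukocytes, at 16.6 and 26.3 CPM. In the efferent ductules 0 of 18 were called higher (background 4.0%), with a median log2 fold change of 1.12. The testis and cauda had 0 of 13 and 0 of 18 (0.353 and 0.07%). Of 12 T cell transcription factors, 9 were higher in the vas deferens with and without that library, with Tcf7, needed for T cell development and memory, at 1.75 and 12.3 CPM and Klf2, which keeps naive T cells circulating, at 11.1 and 34.5 CPM, whereas 4 of 12 were lower in the caput (background 5.05% lower). In the efferent ductules 0 of 12 were called higher (background 4.0%). These 12 genes summed to 550 to 658 CPM in the 3-month vas deferens and to 473 to 549 CPM in the 3-month caput. Cd3e was at 1.21 and 1.33 CPM on average there, and which cells held the listed genes was not tested. Of 11 cytokine and homing receptors, 8 were higher in the vas deferens (6 without that library), where Il2rg, the common cytokine receptor chain, rose from 0.979 to 5.68 CPM, and Il7r, the interleukin-7 receptor, rose in the initial segment from 0.562 to 2.35 CPM. Of 9 genes for ligands of CD4 and CD28, 7 were higher in the vas deferens (6 without that library) and 5 in the efferent ductules (background 4.0%), and the MHC class II genes Cd74 and H2-Ab1 rose by 1.33 and 1.26 on the log2 scale in the former.

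The 4 genes of receptor gene assembly had few reads, and at most 4 could be tested in a region. None of 10 tests over the regions was a call in edgeR, 1 had an unadjusted p under 0.05, and DESeq2 called 0. Ptcra in the corpus (0.0143 and 0.168 CPM, adjusted p = 0.194) and Rag1 in the efferent ductules (0.320 and 0.0307 CPM, adjusted p = 0.205) came closest.

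Some genes on the lists for other lymphocytes rose as well. In the 3-month initial segment the CD8 T cell and NK cell list summed to 293 to 381 CPM and the gamma delta list to 128 to 175 CPM. Cd3e was at 2.21 to 2.86 CPM there, and which cells held the listed genes was not tested. Of 12 CD8 T cell and NK cell genes, 6 were higher and 1 lower in the vas deferens (background 11.4% higher and 8.47% lower) and 4 were higher in the caput (background 3.09%), where Cd8a rose by 3.79 ± 0.39 on the log2 scale, and Cd8b1 rose by 3.70 ± 0.57 in the vas deferens. Of 6 gamma delta T cell genes, 3 were higher in the vas deferens, with Trdc, the delta chain constant gene, at 0.505 and 1.76 CPM, and Cd163l1 rose in the corpus from 1.65 to 5.18 CPM. All 9 B cell genes were higher in the vas deferens, with a median log2 fold change of 4.90. Without 21-month replicate 4 the counts of higher genes were 6, 4 and 9 for these 3 lists, and 2 of the CD8 T cell and NK cell genes were lower. The summed level of the B cell genes went from 16.2 to 33.1 CPM at 3 months to 505 to 1253 CPM at 21 months, and Ighm, the heavy chain of IgM, and Jchain, which joins secreted antibody units, rose by 5.34 and 4.27 on the log2 scale.

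Macrophage and dendritic cell genes had medians near 0 in the vas deferens, and their difference from the T cell lists was not tested. Of 11 macrophage genes 3 were higher (background 11.4%), or 2 without 21-month replicate 4, and the median log2 fold change was 0.01. In the efferent ductules 5 were higher and 1 lower (background 4.0% higher and 2.98% lower), with a median of 0.53, and in the initial segment, caput and testis 3, 2 and 1 were higher. Of 7 dendritic cell genes 0 were called in edgeR (2 had an unadjusted p under 0.05 and DESeq2 called 1), with a summed level of 23.1 to 30.4 CPM at 3 months and 22.8 to 31.5 CPM at 21 months. In other regions, C1qa rose in the initial segment (35.6 and 52.1 CPM), Cd68 in the testis (1.64 and 3.74 CPM), Itgax in the efferent ductules (2.28 and 6.49 CPM) and Cd209a in the caput (0.433 and 1.05 CPM). Of the lymph node stroma genes, Cxcl13, which attracts B cells, rose from 0.742 to 7.89 CPM in the vas deferens, from 0.778 to 7.27 CPM in the cauda, from 1.61 to 10.4 CPM in the efferent ductules, from 0.706 to 2.23 CPM in the initial segment and from 0.847 to 2.68 CPM in the corpus. It was the one gene of this list called in any region with all libraries. Without 21-month vas deferens replicate 4, 2 of 2 genes of this list tested there were called higher (background 12.1%). Ccl19 and Ccl21a had no read in any vas deferens library, and Glycam1 had none at 3 months and a mean of 0.192 CPM at 21 months (adjusted p = 0.0644).

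**Figure D5:**
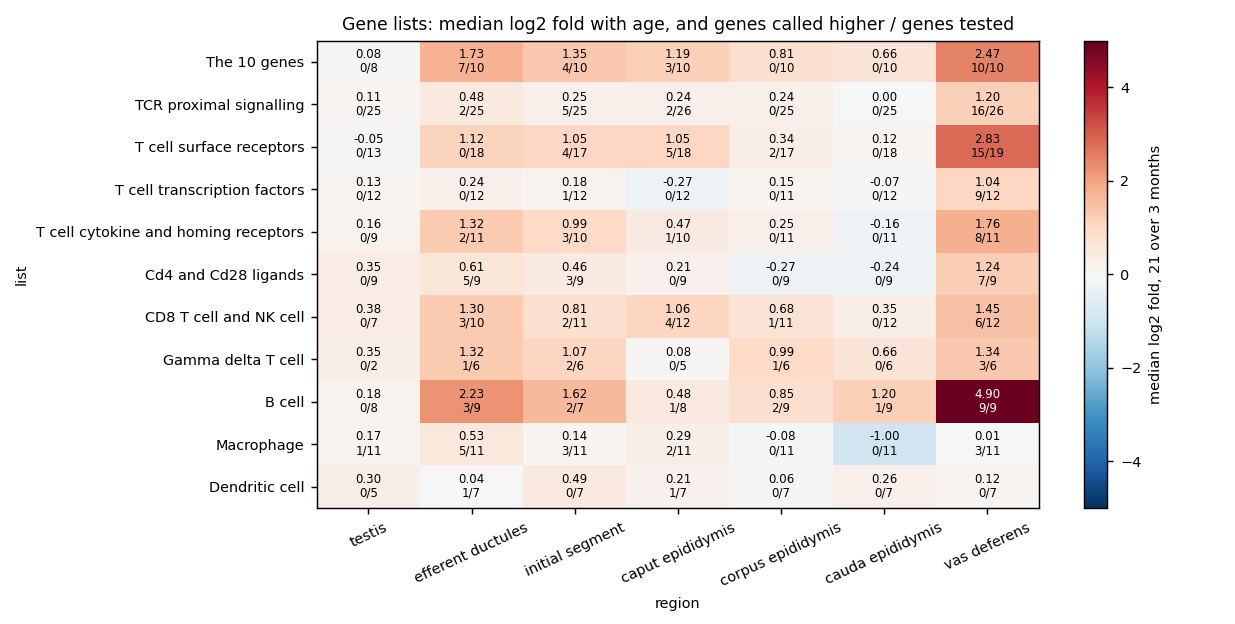
Median log2 fold change at 21 over 3 months (colour and upper number) and genes called higher over genes tested (lower numbers) for the 10 genes and for the lists of T cell, other lymphocyte and myeloid genes, in each region. The 10 genes and B cell genes have medians of 2.47 and 4.90 in the vas deferens, where the macrophage and dendritic cell medians are 0.01 and 0.12. The receptor gene assembly list, with 1 gene tested there and a value of -1.28, is not shown.

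Across the 56 libraries, which share regions and ages, the median Pearson correlation of log2(CPM + 1) over the 45 pairs of the 10 genes was 0.62, with pairs from -0.24 to 0.90. The pair at 0.90 was Cd3d and Cd247, the genes high in the testis. Without the 8 testis libraries the median was 0.74 and the lowest pair 0.35. After group means were removed, so that only differences among replicates remained, the median over all libraries was 0.46.

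Among 27927 genes with a mean of at least 0.5 CPM in some group, those whose levels were most like the mean of Cd3d, Cd3e and Cd3g over the 56 libraries were Ccl5 (r = 0.86), Cd8a (0.85), C130026I21Rik (0.84), Themis (0.84) and Cd22 (0.80). Those most like Cd4 were Rac2 (0.87), Tbc1d10c (0.86), Il27ra (0.84), Spn (0.83) and Dock2 (0.83). Rac2 and Dock2 act in the movement of leukocytes of many kinds, Ccl5 is a chemokine of effector T cells and Cd22 is a B cell receptor.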

How the data were processed

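Total RNA of 56 tissue samples was sequenced as stranded paired-end libraries. Per the labels, reads were trimmed with cutadapt, aligned with HISAT2 to mm10 (GRCm38) and counted with HTSeq. Versions, annotation release, strand setting and treatment of reads that fit several genes are not given in the sources used here. The authors deposited whole-number counts per Ensembl gene with no normalization, and all 56 columns were matched to samples by title. Symbols, positions and exon lengths came from GENCODE M21 (53274 of 53379 genes matched), and promoter windows from RefSeq (GRCm38.p6).

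Age was tested within each region with edgeR 4.0.16 under R 4.3.3, using its quasi-likelihood F-test after TMM scaling. Genes needed at least 10 counts over the libraries of a fit, with Benjamini-Hochberg adjustment over all genes tested. A call is an adjusted p under 0.05. The study used DESeq2 and called genes by a p with no adjustment named. Regions were compared within each age, and the age-by-region interaction and the vas deferens contrast were fitted on all 56 libraries. With totals between 11125279 and 20561967 counts per library, levels well under 1 CPM rest on a few reads, which limits their precision. Ratios were tested by exact permutation. The scripts were tested on simulated data.

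The 10 genes and 19 lists were chosen with earlier results of these data known. From each list, the named genes are the 2 with the lowest adjusted p for age over the regions, and for each of 2 patterns the 5 most correlated genes are named. Others named (Pou2f1, Adipoq, Plin1, Cd36 and the genes of the ratios without a test) were chosen after their values were seen. The Cd4 to Cd3e ratio was a planned test. Alternatives were DESeq2 1.42.0, other scalings and filters, removal of Gm42418, the replicate number as a block, a fit of all libraries, the study's call rule and leaving out libraries. Standard errors are those of fitted log2 fold changes. Replicates are separate mice per the study's methods.

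As a check of pairing, deviations from group means were correlated across genes between libraries with the same replicate number. The mean was 0.0301 between regions at 3 months, 0.00251 at 21 months and 0.0209 between ages, and every pair of numbers was above 0.1 in 1 of 21 pairs of regions at 3 months and in none of the others, so the numbers were not taken to pair the samples.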

Additional observations from a re-analysis of the deposited data

Results flagged for a closer look

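Of 140 groups of 4 libraries, one for each gene, region and age, 13 held a library set far apart from the other 3 by Dixon's test at the 95% level, which chance does in about 1 group in 20. In 3-month cauda replicate 3, Cd28 was at 14.3 CPM (others 1.66 to 2.87), Cd4 at 6.74 CPM (others 0.957 to 1.66), Trbc2 at 2.33 CPM (others 0.318 to 0.616) and Trac at 1.49 CPM (others 0.185 to 0.255). In 21-month vas deferens replicate 4, Trac was at 7.48 CPM (others 2.37 to 3.24) and Cd28 at 6.91 CPM (others 2.77 to 3.07).

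The other 7 were spread over libraries. Cd3g was high in 3-month corpus replicate 4 (1.31 CPM) and in 21-month testis replicate 1 (0.382 CPM, others 0), Trbc1 in 3-month corpus replicate 3 (0.742 CPM) and Lck in 21-month caput replicate 3 (2.90 CPM). Cd28 was high in 3-month testis replicate 3 (0.218 CPM) and in 21-month caput replicate 1 (2.45 CPM). Cd4 was low in 3-month efferent ductule replicate 2 (0.949 CPM, others 1.32 to 1.37).

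The age effect differed among the 7 regions, by the interaction term of the edgeR fit, for Cd3d (adjusted p = 0.00807), Cd3e (0.00159), Cd247 (0.000745), Trac (0.0292), Trbc2 (0.00283), Lck (0.0024) and Cd28 (0.0104). It was larger in the vas deferens than on average in the other 6 regions for Cd3e (adjusted p = 0.000516), Cd247 (0.00494), Trac (0.009), Trbc2 (0.0466), Lck (0.00442) and Cd28 (0.00248).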

How the results depend on the processing

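No result reversed its direction among the called values, and the vas deferens held 9 to 10 calls under every alternative run, with Cd4 the gene lost. By the study's thresholds on edgeR's p the counts of genes changed with age were 1 (testis), 7 (initial segment), 8 (caput), 5 (corpus) and 1 (cauda). In the efferent ductules edgeR's filterByExpr left 5 genes to test, of which 4 were called. A fit of all 56 libraries gave 1 call (initial segment) and 5 calls (caput), and no filter gave 5 for the caput. With the replicate number as a block, 3 genes were called among efferent ductule libraries and 1 among those of the initial segment. The interaction was called for 4 genes without the testis and 3 without the vas deferens (both chosen after seeing the data). The larger effect in the vas deferens was called for 2 genes without the 4 libraries that stand apart (also chosen after seeing the data). The cause of these moves was not tested.

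Leaving out 1 library or 1 replicate number at a time gave 0 calls each time for the testis, corpus and cauda, 1 to 6 for efferent ductules, 1 to 3 for initial segment, 0 to 5 for caput and 9 to 10 for vas deferens. It gave 8 to 9 genes that differed among regions at 3 months and 10 at 21 months, 3 to 7 with an interaction (4 without number 1, 3 without number 4) and 1 to 5 with a larger effect in the vas deferens (2 without number 1, 1 without number 4). The difference in the Cd4 to Cd3e ratio of the vas deferens ran from -1.34 to -0.99. Fewer libraries were fitted in each of these, and these counts are given here without the share of all genes called in the same fits.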
